A study of Canis lupus familiaris with 14 samples.

Results

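Bones of dogs with osteosarcoma were compared by their level of an adipocyte gene. The 7 bone libraries of dogs A to G were ranked by CPM (counts scaled by the library total) of PLIN1 (ENSCAFG00000011986), the gene of perilipin 1, and the 3 highest (dogs D, A and B, called fat-rich) were set against the 3 lowest (dogs G, F and E, called fat-poor). Dog C, at the middle rank, entered neither group. A tumor of each dog was also sequenced, so the 7 bones belong to a series of 14 libraries. Of 30951 genes in the table, 14239 had a mean CPM of 1 or more over the 7 bones and were compared, with PLIN1 left out.

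All dogs carried spontaneous, untreated primary tumors, and no sample had seen chemotherapy. The bone came from the phalanges of the leg amputated with the tumor, and the study removed marrow from it before RNA was extracted. The fat-rich bones were those of a Greyhound (D), a Golden Retriever (A) and a Rottweiler (B), and the fat-poor bones those of a Greyhound (G), a Golden Retriever (F) and a Great Pyranees (E); dog C was a Doberman Pinscher. The labels give neither age nor sex. By the study's patient table the dogs with fat-rich bone were castrated males, whereas the fat-poor group held a castrated male (F) and spayed females (G and E), so sex was not balanced. Age was not balanced either: by the same table D and A were the oldest of the dogs, followed by G, and A was older than F and D older than G. The ages of the groups overlapped, since B was as old as F and younger than G and E. In these groups age and sex cannot be told apart from the level of PLIN1. Judged from the labelled tumor site, each group held 2 forelimbs and 1 hindlimb (B and G). Each dog gave a single bone library, so differences within a group combine dog, sampling and technical variation.

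White adipocytes store triglyceride in a lipid droplet that fills most of the cell. Perilipin 1 coats that droplet and controls the access of lipases to it, and it is made almost only in fat cells. Bone holds adipocytes mainly in the marrow, where they share a stromal origin with osteoblasts, and fat also lies around the bone. In bulk libraries such as these, fewer fat cells and less RNA of a gene per fat cell cannot be told apart.

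PLIN1 spanned a 34.4-fold range of CPM over the 7 bones. It was at 518 in dog D, 209.6 in dog A and 77.9 in dog B, at 63.2 in dog C, and at 60.3 in dog G, 33.6 in dog F and 15.1 in dog E. The edges of the groups lay close together: B was 1.23-fold above C and C was 1.05-fold above G, while A stood 2.69-fold above B. These values chose the groups and are given as a description.

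Total counts were between 22564544 and 34479429 in the bones, and 3 library measures were compared by exact permutation tests, two-sided, in which 3 against 3 cannot go below p = 0.1. Total counts were 28620606 ± 5342902 in fat-rich and 33594982 ± 1279540 in fat-poor bone (SD, n = 3; exact permutation p = 0.2). Genes with at least 1 count numbered 21517 ± 2016 and 19600 ± 951 (SD, n = 3; exact permutation p = 0.3). The 10 most abundant genes took 11.6 ± 2.95% and 25.02 ± 19.98% of counts (SD, n = 3; exact permutation p = 0.4), and the adjusted p was 0.4 for all 3 measures. The bone of dog E stood apart with 47.2% of its counts in 10 genes, and ENSCAFG00000017018 alone took 29.5% of all its counts. Because that lowers the CPM of every other gene in E, the values that follow are CPM after TMM normalization (which scales libraries so that most genes do not change) over the 7 bones. On that scale PLIN1 was at 461, 211 and 69.3 in dogs D, A and B, 63.6 in dog C and 60.1, 26.5 and 24.2 in dogs G, F and E, so the split was the same while the range narrowed to 19.1-fold. In the study's quality control the RNA integrity of all 3 fat-rich bones lay below that of all 3 fat-poor bones, and B was the lowest of all. RNA integrity thus cannot be told apart from the split, and its part in the results was not tested.

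The label was checked against 5 lists of adipocyte genes, of which 35 of 66 genes other than PLIN1 could be tied to an identifier and 34 passed the filter on low values. HCAR1, the lactate receptor of fat cells, fell under it. Symbols were available here mainly for genes that differ between tumor and bone in this series, so the 34 are not a neutral sample of adipocyte genes, and none of the comparisons over them is a test. The fitted log2 fold change was above 0 for 32 of 34, with a median of 1.11 against -0.01 over all genes tested. Without D the median was 0.65, with 31 of 34 above 0. The groups were fully apart, all 3 fat-rich bones above all 3 fat-poor bones, for 9 of the 34 (26.5%), beside 8.6% over all genes tested in that direction. No adipocyte gene was fully apart in the other direction, beside 5.2% over all genes. Members of every list come from the 2032 tested genes with a symbol, of which 6.59% were fully higher and 4.28% fully lower. PLIN1 chose the groups and marks the same cells, so nothing is read from the difference between these shares.

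Of the 9 tested genes of the lipid droplet and lipolysis, 2 kept the groups apart, CIDEA and LIPE, beside 8.6% of all genes. PLIN4, another droplet coat protein, was at 231, 98.1 and 34.03 in dogs D, A and B, 37.4 in dog C and 44.1, 14.8 and 12.2 in dogs G, F and E. CIDEC, which fuses droplets into a single large one, was at 86.5, 35.5 and 11.7 in dogs D, A and B, 9.99 in dog C and 14.4, 5.18 and 7.78 in dogs G, F and E. CIDEA, a relative of CIDEC, was at 87.3, 33.7 and 21.9 in dogs D, A and B, 9.48 in dog C and 12.3, 7.93 and 6.43 in dogs G, F and E. Dogs D and A were the highest for all 3 genes, and B lay below G for PLIN4 and CIDEC. LIPE, the hormone-sensitive lipase, was at 177, 139.9 and 59.8 in dogs D, A and B, 53.1 in dog C and 56.4, 33.6 and 40.3 in dogs G, F and E, a mean of 125 ± 59.7 against 43.4 ± 11.7 (SD, n = 3) with the groups apart by a narrow margin between B and G. PNPLA2, the lipase of the first step of triglyceride breakdown, was at 251, 264 and 180.4 in dogs D, A and B, 138 in dog C and 199, 119 and 114 in dogs G, F and E, 1.61-fold higher in mean in fat-rich bone with B below G. MGLL, which cleaves the last fatty acid, varied little, at 224, 194 and 222 in dogs D, A and B, 176 in dog C and 177, 169 and 204 in dogs G, F and E. ABHD5, the co-activator of PNPLA2 that perilipin 1 holds back, was nearly as even, at 69.1, 51.3 and 56.8 in dogs D, A and B, 53.1 in dog C and 44.4, 53.1 and 46.2 in dogs G, F and E. AQP7, the glycerol channel, was 1.86-fold higher in mean in fat-rich bone, and HILPDA, an inhibitor of PNPLA2 induced by low oxygen, was low and even, between 1.22 and 2.23.

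**Figure D1:**
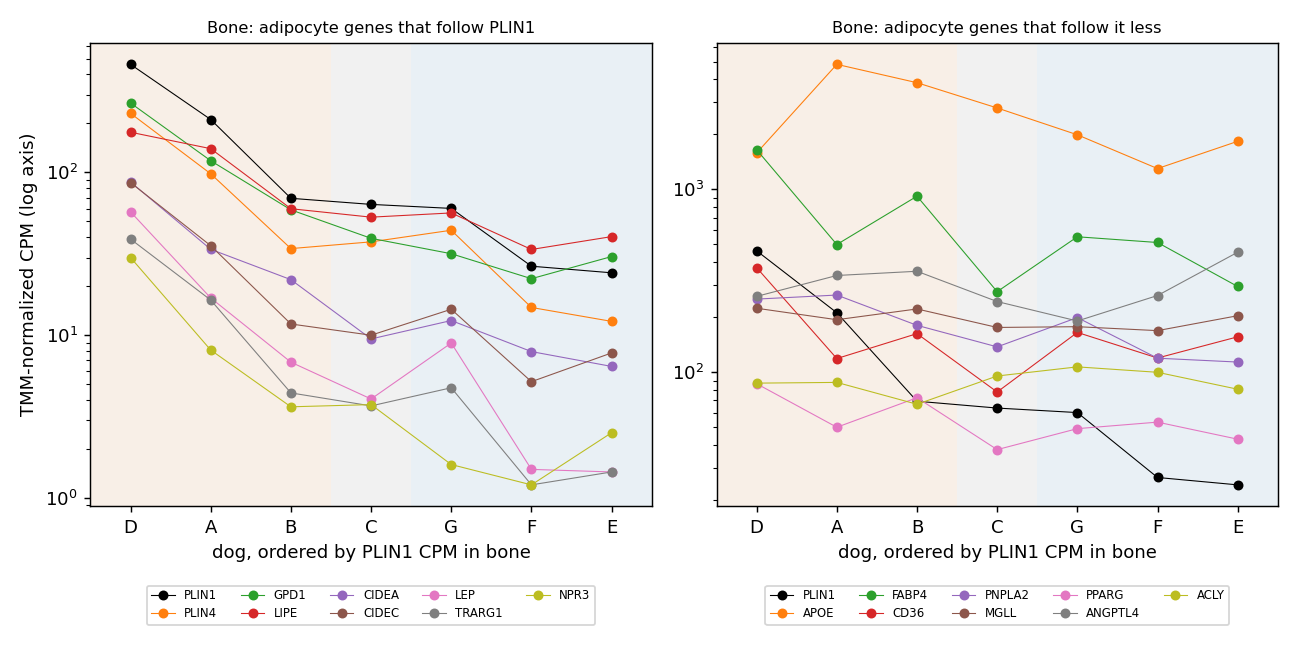
TMM-normalized CPM (log axis) of PLIN1 and 8 adipocyte genes in each panel over the 7 bone libraries, ordered by PLIN1 CPM; shading marks fat-rich (orange), middle (grey) and fat-poor (blue) dogs, each point is 1 library and lines only guide the eye. Genes at left fall from dog D to dogs F and E with PLIN1, with dog G above dog B for PLIN4, CIDEC, LEP and TRARG1. At right MGLL and ACLY stay within a narrow band, and ANGPTL4 is highest in dog E and lowest in dog G.

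Of the 10 genes of fatty acid uptake and triglyceride synthesis, 2 kept the groups apart, GPD1 and FABP5, beside 8.6% of all genes (6 of 10 without B, beside 12.9%). FABP4, the fatty acid carrier that is among the most abundant proteins of fat cells, was at 1648, 499 and 918 in dogs D, A and B, 276 in dog C and 551, 512 and 294 in dogs G, F and E. It was 2.26-fold higher in mean in fat-rich bone, yet A lay below G and F, and C was the lowest of all. CD36, a fatty acid transporter of adipocytes, endothelium and macrophages, was at 373, 119 and 162 in dogs D, A and B, 77.9 in dog C and 165, 119 and 156 in dogs G, F and E, with only D above the fat-poor bones. LPL, the lipase that frees fatty acids from lipoproteins, was at 570.2, 236 and 119 in dogs D, A and B, 95.3 in dog C and 153, 101 and 168 in dogs G, F and E, with B below G and E. GPIHBP1, which anchors LPL on the capillary wall and is made by endothelial cells, was at 83.4, 90.8 and 112 in dogs D, A and B, 56.1 in dog C and 42.4, 45.9 and 90.05 in dogs G, F and E, and there B was the highest and E lay above D. By contrast GPD1, which makes the glycerol phosphate backbone of triglyceride, kept the groups apart at 267, 118 and 58.9 in dogs D, A and B, 39.4 in dog C and 31.6, 22.2 and 30.4 in dogs G, F and E, a mean of 148 ± 107 against 28.1 ± 5.12 (SD, n = 3). FABP5, a fatty acid carrier also made in other cells, kept them apart as well, at 144, 65.4 and 102 in dogs D, A and B, 33.1 in dog C and 44.3, 47.2 and 51.3 in dogs G, F and E. DGAT2, which adds the third fatty acid, was at 115, 56.8 and 14.4 in dogs D, A and B, 7.56 in dog C and 15.6, 8.66 and 16.3 in dogs G, F and E, 4.60-fold higher in mean but with B below G and E. PCK1 and LPIN1 were 2.99-fold and 2.12-fold higher in mean in fat-rich bone, both with B below G.

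Fatty acid synthesis and glucose uptake were uneven. SCD, which introduces the double bond of oleic acid, was at 611, 346 and 63.96 in dogs D, A and B, 141 in dog C and 143, 149 and 122 in dogs G, F and E, high in D and A and lowest in B. ACLY, which supplies acetyl-CoA for lipid synthesis in most tissues, was at 87.1, 87.9 and 66.7 in dogs D, A and B, 95.3 in dog C and 107, 99.8 and 80.6 in dogs G, F and E, 0.841-fold in fat-rich against fat-poor bone and highest in G. MLXIPL (ChREBP, the glucose-sensing transcription factor of lipogenesis) and SLC2A4 (GLUT4, the insulin-regulated glucose transporter) were fully apart, but B was the highest library for both, at 55.6 and 18.0. TRARG1, a membrane protein that traffics with GLUT4, followed PLIN1 instead, at 38.9, 16.4 and 4.42 in dogs D, A and B, 3.67 in dog C and 4.75, 1.202 and 1.44 in dogs G, F and E, an 8.08-fold difference of means and the largest of the 34.

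Of the secreted factors, LEP, the gene of leptin, was at 57.2, 16.9 and 6.82 in dogs D, A and B, 4.05 in dog C and 8.95, 1.497 and 1.44 in dogs G, F and E, 6.81-fold higher in mean in fat-rich bone, with G above B. NNAT was fully apart, at 48.2, 16.1 and 8.48 in the fat-rich and 8.36, 8.05 and 7.22 in the fat-poor bones, although D alone stood clear of the rest. APOE, an apolipoprotein that macrophages also make, was the most abundant of the 34, at 1583, 4833 and 3836 in dogs D, A and B, 2789.8 in dog C and 1989.8, 1300.1 and 1833 in dogs G, F and E, and the fat-richest bone D lay below G and E. ANGPTL4, an inhibitor of LPL induced by fasting and low oxygen, was at 259.7, 338 and 356 in dogs D, A and B, 243 in dog C and 191, 263 and 453 in dogs G, F and E, with a fold of means of 1.05 and its highest value in E. RETN was at 17.7 in D and between 2.89 and 9.79 in the other bones.

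Among transcription factors and receptors, PPARG, the master regulator of adipocyte differentiation, was at 86.4, 49.9 and 72.4 in dogs D, A and B, 37.7 in dog C and 49.1, 53.3 and 42.97 in dogs G, F and E, 1.44-fold higher in mean with A level with G and F. NPR3, the clearance receptor for natriuretic peptides, was fully apart at 29.98, 8.099 and 3.63 in dogs D, A and B, 3.74 in dog C and 1.603, 1.202 and 2.51 in dogs G, F and E. FFAR4, the receptor for long-chain fatty acids, was fully apart too, at 6.68, 4.58 and 1.696 in dogs D, A and B, 1.72 in dog C and 1.25, 0.393 and 0.605 in dogs G, F and E. KLF15 and ADRB1 did not separate the groups, with folds of means of 1.07 and 1.36. The genes of brown and beige fat that could be tested, DIO2, PRDM16 and LHX8, gave 0 of 3 with groups apart. PRDM16 was at 12.8, 11.1 and 15.7 in dogs D, A and B, 13.02 in dog C and 17.9, 10.99 and 11.1 in dogs G, F and E, and UCP1 could not be tied to an identifier.

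How steeply a gene followed PLIN1 was described by the slope of its log2 level on that of PLIN1 over the 7 bones, where 1 means that the gene doubles when PLIN1 doubles. The points share libraries with the ranking, so the slopes carry no p. Slopes ran from -0.12 (HILPDA) to 1.20 (LEP) and were above 0 for 30 of 34 genes. LEP and TRARG1 (1.16) were steeper than PLIN1 itself. PLIN4 (0.95), NPR3 (0.94), FFAR4 (0.92), CIDEC (0.88), CIDEA (0.84), DGAT2 (0.82) and GPD1 (0.80) followed closely. In all, 14 genes had a slope over 0.5 and 14 a slope under 0.25, among the latter CD36, PPARG (0.16), ABHD5 (0.09), MGLL (0.05), KLF15 (0.04), ACLY (-0.01) and ANGPTL4 (-0.05). Without dog D, chosen after its values were seen, 10 of the 14 kept a slope over 0.5: LEP stayed at 1.18, TRARG1 at 1.19 and PLIN4 at 0.95, while FABP4 went from 0.40 to 0.16, LPL from 0.47 to 0.23 and CD36 from 0.25 to -0.07. The differences of FABP4, LPL and CD36 with PLIN1 thus rested largely on the bone of D. APOE went the other way, from 0.13 to 0.55, since D was high in PLIN1 and low in APOE. With library totals alone over the 7 bones, 14 genes had a slope over 0.5, 10 a slope under 0.25, and 33 of 34 were above 0.

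**Figure D2:**
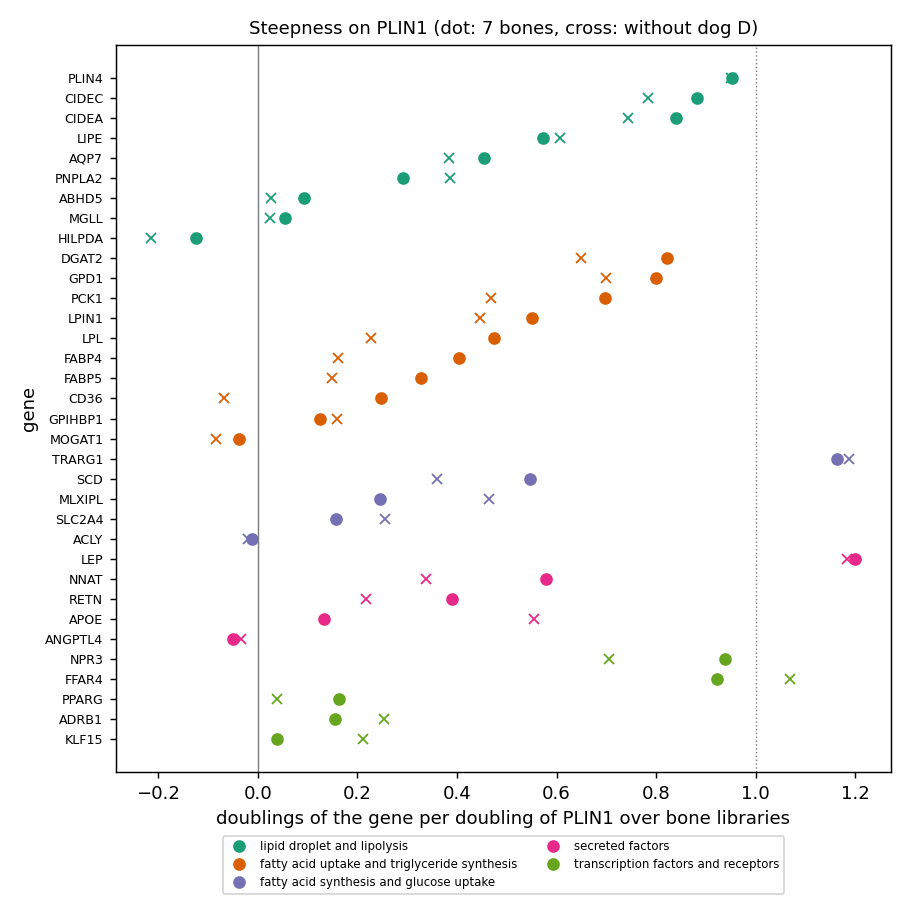
Slope of log2 level of each of the 34 adipocyte genes on log2 PLIN1, in doublings per doubling, over 7 bone libraries (dots) and over 6 without dog D (crosses), coloured by list; solid and dotted lines mark 0 and 1. LEP and TRARG1 sit at 1.20 and 1.16, whereas MGLL, ACLY and ANGPTL4 sit between -0.05 and 0.05.

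The bones of D and A carried most of the contrast, and B was hard to tell from G. Of the 34 adipocyte genes, 26 were higher in D than in each of the fat-poor bones, 23 in A and 16 in B. B was above both C and G for 15 genes, and G was above B for another 15. The share of all genes is not given for these counts, so they only describe the 34 genes. The median ratio of B to G over the 34 genes was 1.11, against 2.44 for D over G, with medians over all genes tested of 0.9996 and 1.004. Leaving out B raised the number of genes fully apart from 9 to 20 of 34, with all genes then at 12.9%, and leaving out G raised it to 15, with all genes at 13.3%. A split by CPM of PLIN4, CIDEC or LEP in place of PLIN1 gave D, A and G as the 3 highest and C, F and E as the 3 lowest for each of them. A split by FABP4 gave D, B and F against A, C and E, so that the 2 bones highest in PLIN1 fell on opposite sides.

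The breeds gave pairs within which the label could be set side by side. Among the Greyhounds, PLIN1 was 7.68-fold higher in D than in G, and 31 of 34 adipocyte genes were higher in D. Their median ratio was 2.44, against 1.004 over all genes tested. That pair was not matched: D was a castrated male with a tumor of the humerus and G a spayed female with one of the tibia. Among the Golden Retrievers, both castrated males with a tumor of the radius, PLIN1 was 7.97-fold higher in A than in F. There 26 of 34 genes were higher in A, with a median ratio of 2.27 against 0.991 over all genes tested. Each pair is a single library against another, so these ratios have no replicate check.

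Likeness to PLIN1 was measured over the 7 bones by Pearson's r of log2(CPM + 1) among the 2032 tested genes with a symbol, as a description without p, since the libraries share depth and composition. The 10 most alike were LIPE (r = 0.994), PLIN4 (0.992), TRARG1 (0.989), FFAR4 (0.984), CIDEC (0.979), GPD1 (0.975), LEP (0.974), CLCA2 (0.973), CIDEA (0.968) and ACOT11 (0.964). Of these, 8 were on the adipocyte lists, and 9 were among the 10 most alike after TMM normalization. CLCA2, a calcium-activated chloride channel regulator, was at 7.64, 3.98 and 1.42 in dogs D, A and B, 0.721 in dog C and 1.69, 0.613 and 0.233 in dogs G, F and E. ACOT11, an acyl-CoA thioesterase, lay between 1.45 and 2.70 and dropped to r = 0.720 after TMM normalization, so its place depended on the scaling.

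Across all 14239 genes, edgeR's quasi-likelihood test called 0 genes different between fat-rich and fat-poor bone at an FDR under 0.05 with more than a 2-fold change (0% called), and the smallest FDR was 0.224. At an unadjusted p under 0.05 there were 1068 genes (7.501%). The DESeq2 Wald test called 24 genes higher (0.169%) and 12 lower (0.0843%), 10 of them with a symbol, and limma-voom called 0. Among those 10, CIDEA, GPD1, NPR3 and TRARG1 were on the adipocyte lists. By the rule of groups fully apart, 1225 genes were higher (8.6%) and 740 lower (5.2%) in fat-rich bone. That split depended on the scaling: with library totals alone, where the median log2 fold change over all genes moved from -0.01 to 0.15, 1482 were higher and 137 lower. A call, where one was made, says only that a gene went with a split chosen by PLIN1.

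Outside the adipocyte lists, the gene with a symbol that stood farthest above its error in fat-rich bone was AGT, the gene of angiotensinogen, the precursor of angiotensin that liver and fat secrete. AGT was at 57.97, 63.3 and 24.3 in dogs D, A and B, 28.8 in dog C and 7.43, 2.55 and 2.05 in dogs G, F and E, with a log2 fold change of 3.59 ± 0.61 (SE), an edgeR FDR of 0.640 and a DESeq2 adjusted p of 3.4e-07. The lowest fat-rich bone lay 3.27-fold above the highest fat-poor one, and dog C lay within the fat-rich range. SGK2, a serum- and glucocorticoid-regulated kinase, was low in all bones, at 4.86, 2.86 and 2.56 in dogs D, A and B, 1.55 in dog C and 0.175, 0.442 and 0.559 in dogs G, F and E (log2 fold change 3.14 ± 0.57, SE, DESeq2 adjusted p 0.00102). It passed the filter on low values only through the bones other than the fat-poor ones, so nothing is read from that adjusted p. GSTT2B, a glutathione transferase, was at 25.4, 21.7 and 27.1 in dogs D, A and B, 9.75 in dog C and 10.7, 6.404 and 11.4 in dogs G, F and E (log2 fold change 1.38 ± 0.27, SE; DESeq2 adjusted p 0.00898). TSPAN8, a tetraspanin, was at 6.63, 8.82 and 12.6 in dogs D, A and B, 13.98 in dog C and 3.64, 3.58 and 2.65 in dogs G, F and E, with its highest value in C. HNMT, which inactivates histamine, was at 66.997, 52.2 and 73.7 in dogs D, A and B, 27.4 in dog C and 33.3, 38.2 and 28.6 in dogs G, F and E, and its level in C was the lowest of all 7. ABCC6, CES2 (a carboxylesterase), GCHFR (the feedback regulator of GTP cyclohydrolase) and KIAA1755 were also among these genes, with folds of means between 1.57 and 2.32. Each had an edgeR FDR of 0.640, and AGT, SGK2, GSTT2B and TSPAN8 were called by DESeq2.

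The 10 genes named as lower in fat-rich bone had the smallest FDR among those with a symbol and groups apart. CYFIP2, a subunit of the WAVE complex that drives actin branching, was at 48.6, 38.4 and 33.4 in dogs D, A and B, 95.5 in dog C and 76.4, 105 and 334 in dogs G, F and E (log2 fold change -2.10 ± 0.56, SE; edgeR FDR 0.640, DESeq2 adjusted p 0.0223). Its largest value was in E, without which the log2 fold change was -1.21. WIPF3, which binds WASP-type actin regulators, was at 5.56, 5.23 and 7.06 in dogs D, A and B, 10.1 in dog C and 10.7, 11.04 and 17.5 in dogs G, F and E. CYP26B1, which degrades retinoic acid, was at 78.7, 73.7 and 104 in dogs D, A and B, 144 in dog C and 241, 121 and 171 in dogs G, F and E, with its lowest values in A and D. FLVCR2, a membrane transporter, was at 15.1, 26.96 and 28.4 in dogs D, A and B, 41.4 in dog C and 46.1, 39.2 and 98.98 in dogs G, F and E, again highest in E. ADAM19 (a membrane metalloprotease), ADAMTSL1 (an extracellular matrix protein), PRSS12 (the protease neurotrypsin), POGK, TMCC3 and PELI2 (a ubiquitin ligase of Toll-like receptor signalling) had folds of means between 0.446 and 0.617. Of these 10, only CYFIP2 was called by DESeq2.

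**Figure D3:**
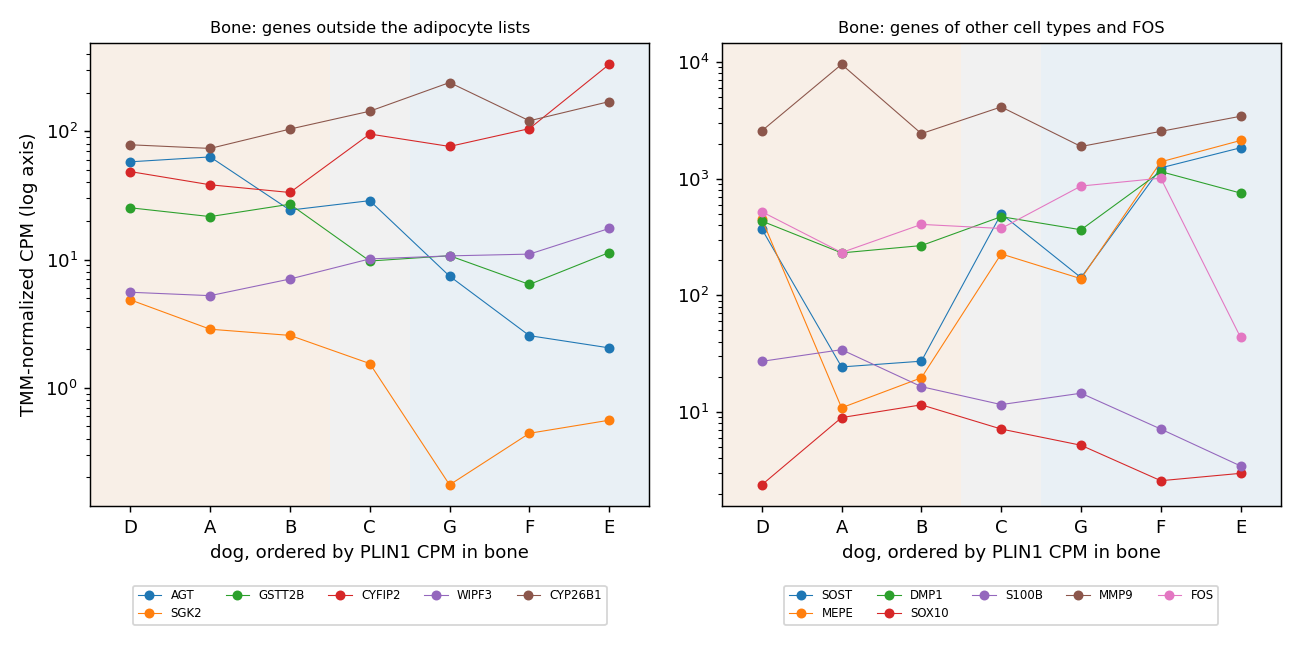
TMM-normalized CPM (log axis) over the 7 bone libraries, ordered by PLIN1 CPM and shaded as fat-rich (orange), middle (grey) and fat-poor (blue); each point is 1 library. At left, genes outside the adipocyte lists whose groups were fully apart, such as AGT, at 24.3 or more in fat-rich and 7.43 or less in fat-poor bone; at right, genes of osteocytes, Schwann cells and osteoclasts and the immediate early gene FOS, of which S100B alone kept the groups apart.

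The 3 smallest p-values belonged to genes without a symbol that were counted in one group and not at all in the other, and they were named after their values were seen. ENSCAFG00000004202 had 262, 170 and 142 counts in dogs D, A and B and 0 in each of the other 4 bones. ENSCAFG00000044246 had 124, 128 and 79 counts in the fat-rich bones and 71 in dog C, and ENSCAFG00000003714 had 168, 132 and 70 in the fat-rich bones and 88 in dog C, both with 0 counts in each fat-poor bone. Their edgeR FDR was 0.224, 0.280 and 0.280, and with library totals alone these were the 3 genes called, at an FDR of 0.0305, 0.0371 and 0.0371. With 0 counts in each fat-poor bone they could pass the filter on low values only through the other bones, so nothing is read from these FDR values. In all, 5 genes were counted in each fat-rich bone and in no fat-poor one, and 0 genes showed the opposite pattern. For 2 of the 5 most counts came from dog B. ENSCAFG00000036726 had 3, 11 and 166 counts in dogs D, A and B, and ENSCAFG00000045120 had 2, 10 and 709. All 5 could likewise pass the filter only through the other bones, so nothing is read from this tally. In the tumors the presence of 2 of the 3 genes named first did not go by dog. ENSCAFG00000004202 had 0 counts in the tumor of D and 174 and 127 in the tumors of G and F. ENSCAFG00000044246 had 110 and 258 counts in the tumors of G and F and 0 in those of D and B. ENSCAFG00000003714 went by dog more closely, with 144, 76, 160 and 80 counts in the tumors of D, A, B and C and 0 in those of G and F, but 89 in that of E. What these identifiers encode was not given in the sources used here.

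Other cell types of bone were followed through lists of their markers, since a bone with more fat could also differ in what else it held. Osteocytes, the cells embedded in the mineral, were represented by 8 tested genes, and 7 of 8 had a fitted log2 fold change below 0, with a median of -0.63. SOST, the Wnt inhibitor sclerostin, was at 370.4, 24.3 and 27.2 in dogs D, A and B, 499.6 in dog C and 142, 1237 and 1839 in dogs G, F and E. MEPE, a mineral matrix protein, was at 451, 10.9 and 19.6 in dogs D, A and B, 226 in dog C and 139, 1393 and 2124 in dogs G, F and E, and DMP1, another one, at 433, 231 and 267 in dogs D, A and B, 472 in dog C and 364, 1149 and 752 in dogs G, F and E. The order was not that of PLIN1, because the fat-richest bone D held more SOST and MEPE than G, so that none of these 3 was apart, nor was PHEX, the phosphate-regulating peptidase. Without D, 4 of the 8 were fully lower, beside 12.6% of all genes, and without E the median was -0.20. With library totals alone 6 of 8 were below 0 and 0 were apart. FGF23, the phosphate hormone of osteocytes, was the single list member fully apart, 1 of 8 beside 8.6% of all genes, and was higher, not lower, at 4.42, 1.91 and 2.84 in dogs D, A and B, 1.03 in dog C and 0.554, 1.52 and 1.72 in dogs G, F and E. SOST had a log2 fold change of -2.93 ± 1.32 (SE, edgeR FDR 0.651).

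The Schwann cell list went with the fat-rich bones for 7 of 8 tested genes, with a median log2 fold change of 0.995 and 3 of 8 fully apart (S100B, MBP and CDH19), beside 8.6% of all genes; with library totals alone 2 of 8 were apart. S100B, a calcium-binding protein of glia that adipocytes also make, was at 27.2, 34.2 and 16.5 in dogs D, A and B, 11.6 in dog C and 14.5, 7.14 and 3.45 in dogs G, F and E. SOX10, the transcription factor that defines these cells, was at 2.37, 8.96 and 11.5 in dogs D, A and B, 7.14 in dog C and 5.19, 2.58 and 2.98 in dogs G, F and E, high in A and B and lowest of all in D. PMP22, a myelin protein found in many cells, was at 60.7, 46.7 and 54.4 in dogs D, A and B, 67.6 in dog C and 59.7, 72.2 and 45.5 in dogs G, F and E, and MAL, a proteolipid of myelin and other membranes, overlapped as well. MBP, the myelin basic protein, was at 13.9, 29.8 and 24.2 in dogs D, A and B, 18.9 in dog C and 12.3, 13.7 and 10.1 in dogs G, F and E. Without D, 7 of 8 (PMP22 was the exception) were fully higher, beside 14.5% of all genes.

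All 8 tested osteoclast genes had a fitted fold change above 0 (median log2 0.71), but 0 of 8 were fully apart, beside 8.6% of all genes fully higher and 5.2% fully lower. A was high and D and B were not. Without A the median was -0.04 and 3 of 8 were above 0. MMP9, the gelatinase of osteoclasts, was at 2566, 9538 and 2430.2 in dogs D, A and B, 4118 in dog C and 1886, 2542 and 3426 in dogs G, F and E. ACP5, the tartrate-resistant acid phosphatase, was at 1376, 5065 and 1252 in dogs D, A and B, 2029 in dog C and 1052, 1624 and 2016 in dogs G, F and E, and CTSK, the collagen-degrading cathepsin K, at 2144, 4204 and 1159.6 in dogs D, A and B, 1942 in dog C and 1296, 1979 and 1734 in dogs G, F and E. ATP6V0D2, a subunit of the proton pump, was likewise highest in A, at 179.6. The summed level of the 8 genes was 19193 in A and between 4338 and 8243 in the other 6 bones. Osteoblast genes were mixed, 2 of 4 above 0 and 0 of 4 apart, beside the same shares: BGLAP (osteocalcin) was at 213, 901 and 496 in dogs D, A and B, 853 in dog C and 501, 339 and 2504 in dogs G, F and E, and PTH1R and DLX5 also overlapped. The median of these 4 was -0.34 and turned to 0.07 with library totals alone and to 0.64 without E.

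Of 5 endothelial genes, 5 were fitted above 0 (median log2 0.57) and 2 were fully apart, beside 8.6% of all genes (1 with library totals alone, beside 10.4%). EGFL7 was at 253, 280.1 and 465 in dogs D, A and B, 359 in dog C and 219, 236 and 203 in dogs G, F and E and CLDN5, a tight junction protein, at 57.1, 73.6 and 61.8 in dogs D, A and B, 45.7 in dog C and 52.4, 28.9 and 48.2 in dogs G, F and E, while ESM1 and EMCN overlapped; without B the median fell to 0.25 with 3 of 5 above 0. Of 9 marrow stromal genes, LPL among them, 2 were apart, beside the same 8.6% of all genes (1 with library totals alone): VCAM1 was at 338, 320.0 and 299 in dogs D, A and B, 171 in dog C and 260.3, 269.8 and 172 in dogs G, F and E and KITLG, the ligand of KIT, at 42.1, 37.04 and 40.4 in dogs D, A and B, 25.996 in dog C and 17.6, 34.4 and 33.99 in dogs G, F and E. LEPR, the leptin receptor of marrow stroma, was at 204, 166 and 109 in dogs D, A and B, 98.9 in dog C and 37.4, 151 and 187 in dogs G, F and E, and SPP1, GAS6 and PDGFRB overlapped too. RGS5, the 1 pericyte gene found, was at 44.2, 65.6 and 46.8 in dogs D, A and B, 50.1 in dog C and 46.7, 49.6 and 54.1 in dogs G, F and E. Of 4 genes of the connective tissue list, 1 was fully higher (MYOC) and 1 fully lower (DCN, the proteoglycan decorin), beside 8.6% and 5.2% of all genes, and 0 were apart with library totals alone. DCN was at 1596, 1084 and 1049 in dogs D, A and B, 1910.4 in dog C and 2263, 1799 and 2179.9 in dogs G, F and E.

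The marrow blood cell genes that could be followed were low in every bone. MPO, the granule enzyme of neutrophil precursors, was at 0.164, 4.48 and 0.592 in dogs D, A and B, 0.172 in dog C and 0.3497, 6.53 and 0.559 in dogs G, F and E, and the erythroid genes EPB42 and HEMGN were between 0.691 and 1.89. CD5L of macrophages was between 0 and 1.26. No gene of the megakaryocyte, T and NK cell or skin lists could be tied to an identifier, so these cells were not followed. ACTA1, of skeletal muscle, was at 14.6, 23.7 and 15.9 in dogs D, A and B, 17.8 in dog C and 22.2, 0.834 and 0 in dogs G, F and E. Of cartilage and tendon, CYTL1 was at 0.0818, 166 and 147 in dogs D, A and B, 223 in dog C and 13.6, 0.466 and 0 in dogs G, F and E, and CHAD at 118, 1008 and 681 in dogs D, A and B, 1821 in dog C and 760.0, 295 and 5316 in dogs G, F and E; MATN3, COL9A1 and the tendon list's COL12A1 overlapped too, so that 0 of 4 chondrocyte and 0 of 2 tendon genes were apart. For all these markers, the part that such cells played in the split was not tested.

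Lists of cell states were read against the same shares of all genes, 8.6% fully higher and 5.2% fully lower. Of 13 genes of dividing cells 0 were apart (median log2 0.10), among them TOP2A, MCM5 and MCM2, and MKI67 was at 14.9, 17.6 and 6.27 in dogs D, A and B, 14.4 in dog C and 9.82, 15.3 and 12.4 in dogs G, F and E. Of 6 immediate early genes, which respond to handling and stress within minutes, EGR2 alone was fully lower (0 of 6 with library totals alone), at 12.8, 4.64 and 6.63 in dogs D, A and B, 7.76 in dog C and 14.8, 27.3 and 14.4 in dogs G, F and E. FOS was at 521, 233 and 405 in dogs D, A and B, 374 in dog C and 864, 1009 and 43.5 in dogs G, F and E, highest in F and G and lowest in E, and EGR1, JUNB and FOSB overlapped as well. Without E, 4 of 6 were fully lower in fat-rich bone, beside 13.0% of all genes. The hypoxia (4 genes), inflammation (4), oxidative phosphorylation (2) and glucocorticoid (4) lists had 0 genes apart, which in lists this short is near those shares; among these genes were LDHA, PGK1, ADM and EGLN3, NFKBIA, CXCL8 and CCL2, CYCS and ATP5MC1, and TSC22D3, ZBTB16, MT2A and KLF9. IL6 was at 10.5 in D and between 0.093 and 2.797 in the other bones. Of 2 genes of fatty acid oxidation, DECR1, the dienoyl-CoA reductase of mitochondria, was fully higher at 18.9, 18.3 and 17.3 in dogs D, A and B, 2.58 in dog C and 12.6, 3.29 and 6.01 in dogs G, F and E, and PDK4 overlapped.

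**Figure D4:**
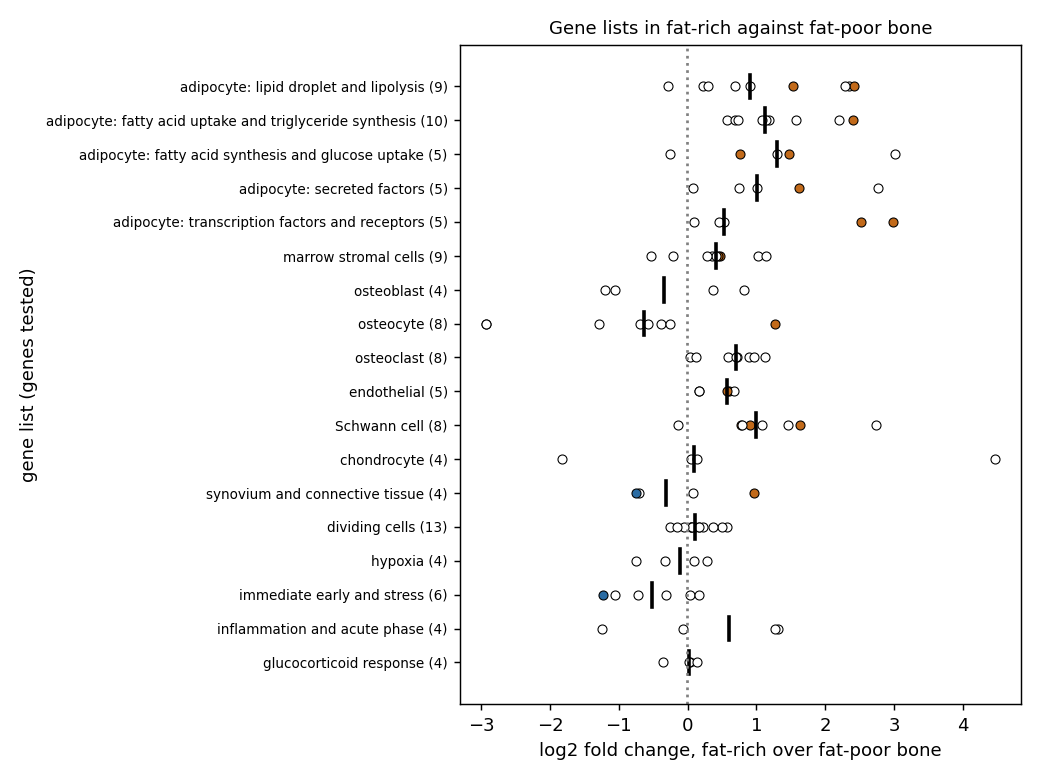
Fitted log2 fold change, fat-rich over fat-poor bone, of each tested gene in lists with 4 or more tested genes (open circle, groups overlap; orange, all fat-rich bones higher; blue, all fat-rich bones lower); bars mark list medians and the dotted line the median of all 14239 genes. Adipocyte lists have medians between 0.52 and 1.304, Schwann cell genes 0.995 and osteocyte genes -0.63.

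The tumors of the same dogs were not used to choose the groups, so there PLIN1 could be tested. This asks whether dogs with fat-rich bone also had fat-rich tumors. Over 14329 genes with a mean CPM of 1 or more in the 7 tumors, edgeR called 0 genes (0% called; 502 at an unadjusted p under 0.05), limma-voom called 0, and DESeq2 called 14 higher (0.0977%) and 10 lower (0.0698%). PLIN1 was at 20.5, 8.53 and 0.754 in dogs D, A and B, 3.03 in dog C and 0.992, 1.897 and 2.11 in dogs G, F and E in the tumors, after TMM normalization over the tumors alone, so these levels are not compared with those of bone. The tumors of D and A were the highest of the 7, the same dogs as in bone, but the tumor of B was the lowest. By the study's quality control the tumor of A had the lowest RNA integrity among the tumors, and its part was not tested. The log2 fold change was 2.58 ± 1.07 (SE; unadjusted p 0.0464, edgeR FDR 0.998), and it was 1.47 without the tumor of D and 3.13 without that of B (FDR of 0.808 or more under all alternatives but DESeq2, where it was 0.576).

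Of 29 adipocyte genes other than PLIN1 tested in the tumors, 21 had a fitted fold change above 0, with a median log2 of 0.55 against 0.01 over all genes. Fully higher were 3 (GPD1, FABP5 and PPARG), beside 3.55% of all genes, and fully lower was 1 (ACLY), beside 3.92%. GPD1 was at 12.5, 10.6 and 12.7 in dogs D, A and B, 5.31 in dog C and 0.516, 2.26 and 4.76 in dogs G, F and E, a log2 fold change of 2.25 ± 0.77 (SE; unadjusted p 0.0225, edgeR FDR 0.998). FABP5 was at 48.6, 40.7 and 62.4 in dogs D, A and B, 26.8 in dog C and 28.1, 22.3 and 30.8 in dogs G, F and E. PPARG was at 27.5, 25.04 and 26.5 in dogs D, A and B, 19.7 in dog C and 15.9, 21.4 and 19.8 in dogs G, F and E, and ACLY at 121, 101 and 121 in dogs D, A and B, 91.9 in dog C and 217, 213 and 122 in dogs G, F and E. The 3 higher genes kept B with D and A, in contrast to PLIN1 and PLIN4. PLIN4 was at 15.9, 13.3 and 1.24 in dogs D, A and B, 2.55 in dog C and 1.67, 1.48 and 3.25 in dogs G, F and E, with D and A clear of the other 5. FABP4 was at 105, 53.5 and 14.1 in dogs D, A and B, 38.7 in dog C and 17.5, 0.279 and 19.8 in dogs G, F and E, again highest in D and A, and almost absent from the tumor of F. The other members of the 12 most abundant, APOE, ANGPTL4, SCD, LPL, MGLL, PNPLA2, CD36, LIPE and GPIHBP1, overlapped, with log2 fold changes between -0.47 and 1.31 and edgeR FDR values of 0.998. LEP was at 0.866 or less in every tumor and TRARG1 was above 0.163 only in that of D, at 0.881.

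**Figure D5:**
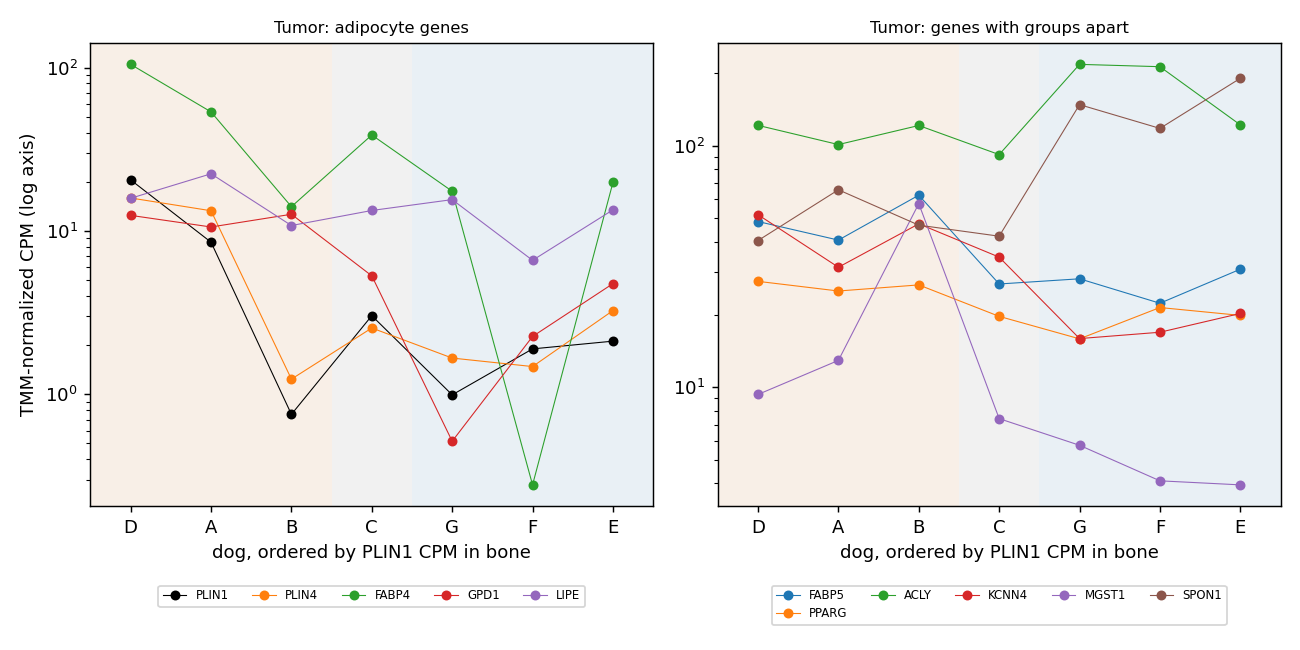
TMM-normalized CPM (log axis) in the 7 tumors, with dogs in the order of PLIN1 in bone and shading for fat-rich (orange), middle (grey) and fat-poor (blue) bone; each point is 1 tumor. At left PLIN1 is highest in dogs D and A (20.5 and 8.53) and lowest in dog B (0.754); at right are genes whose 2 groups of tumors do not overlap.

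The genes named for the tumors, 5 in each direction, were chosen for the smallest FDR among genes with a symbol. The smallest FDR over all genes was 0.372, shared by 2 genes without a symbol. KCNN4, a calcium-activated potassium channel, was at 51.8, 31.4 and 47.5 in dogs D, A and B, 34.6 in dog C and 15.9, 16.9 and 20.2 in dogs G, F and E (log2 fold change 1.31 ± 0.32, SE; edgeR FDR 0.998). MGST1, a microsomal glutathione transferase, was at 9.34, 12.9 and 57.6 in dogs D, A and B, 7.42 in dog C and 5.75, 4.10004 and 3.94 in dogs G, F and E in the tumors. In bone it was at 75.8, 35.2 and 20.6 in dogs D, A and B, 13.2 in dog C and 23.3, 15.9 and 7.22 in dogs G, F and E, where its 2 groups overlapped because G lay above B. GGA2, a Golgi sorting adaptor, was at 92.3, 58.6 and 110.1 in dogs D, A and B, 32.1 in dog C and 32.1, 37.5 and 48.4 in dogs G, F and E. SORCS1, a sorting receptor, was counted in the tumors of D, A and B and listed at 0 in those of G, F and E, and CCK (cholecystokinin) was at 45.7 in the tumor of B and at 0.661 or less elsewhere. Lower in the tumors of dogs with fat-rich bone were SPON1 (the matrix protein spondin 1), ASIP (agouti), HAS2 (a hyaluronan synthase), IER2 (an immediate early gene) and PEG10. SPON1 was at 40.5, 65.7 and 46.9 in dogs D, A and B, 42.2 in dog C and 148, 118 and 190.2 in dogs G, F and E (log2 fold change -1.57 ± 0.34, SE; edgeR FDR 0.998, DESeq2 adjusted p 0.0284). Apart from SORCS1, SPON1 and ASIP, which DESeq2 called, these were called by no test.

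Of the 20 genes chosen for the smallest FDR among those fully apart in bone outside the adipocyte lists, 10 in each direction, 17 could be tested in tumors and 0 were fully apart there, beside 3.55% of all genes higher and 3.92% lower, so that 0 is close to the background. In direction, 7 of 7 higher genes were fitted above 0 in tumors and 7 of 10 lower ones below 0, beside 61.6% of 1151 genes fully higher in bone and 61.3% of 728 fully lower ones. Bone and tumor came from the same dogs, and these shares are a description.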

How the data were processed

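Polyadenylated RNA of bone and tumor from 7 dogs was sequenced. The deposited values are raw read counts per Ensembl gene, made by the authors with Trimmomatic 0.39, HISAT2 2.2.1 and StringTie 1.3.3 on CanFam3.1, versions per the submitters' processing notes; strand and multi-mapping settings were not given in the sources used here, which leaves overlapping genes and close paralogs uncertain. Each of the 14 columns carries a dog and a tissue in its name. The groups were selected on PLIN1 CPM of the bones themselves, and the members and lists were chosen with earlier results of these data known.

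Genes with a mean CPM of 1 or more over the 7 libraries of a tissue were tested by edgeR 4.0.16 (R 4.3.3) with its quasi-likelihood test, TMM normalization and Benjamini-Hochberg FDR, without covariates, since the groups are different dogs. DESeq2 1.42.0 and limma 3.58.1 were alternatives, beside other normalizations, filters, groupings, ranking genes and the omission of each library. The code was tested on simulated counts. Printed levels are TMM-normalized CPM, scaled within each tissue. Mitochondrial genes were not identified, so their share was not computed. Symbols were paired with 2292 identifiers from the study's supplementary gene tables, 2267 of them unique; coordinates and sequences were not used here.

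Named were PLIN1 and genes of 5 adipocyte lists (the 12 most abundant in full), the 10 higher and 10 lower other genes with the smallest FDR and groups apart, the 10 most like PLIN1, up to 4 abundant genes of each other list, and in tumors the 5 with the smallest FDR in each direction. MGST1 in bone, UCP1, list members beyond these 4 (such as SOX10 and FGF23) and the genes without a symbol were added after their values were seen. Results on a few genes that the rule would name are not reported here.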

Additional observations from a re-analysis of the deposited data

Results flagged for a closer look

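Among 67 sets of 7 libraries, 4 held a library that stood far from the others by Dixon's test at its 95% level, which chance does in about 1 of 20 sets. The share of counts in the 10 most abundant genes was 47.2% in the bone of dog E, against 8.43 to 22.2% in the other bones. FABP4 was at 0.279 TMM-normalized CPM in the tumor of dog F, against 14.1 to 105 in the other tumors. ANGPTL4 was at 29.3 in the tumor of dog B, against 137 to 222 in the others, and CCK was at 45.7 in the tumor of dog B, against 0 to 0.661. The cause of these values was not tested.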

How the results depend on the processing

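No paired analysis was possible because the fat-rich and fat-poor groups are different dogs and share no dog letter. The number of genes called in bone was 0 by edgeR and stayed at 0 under limma-voom, RLE size factors, filterByExpr, all genes with a count, the middle library added to either group, 2 against 2 and each other ranking gene. It was 36 with the DESeq2 Wald test and 3 with library totals only (the 3 genes without a symbol given above). When each library was left out it was 0 to 1, with 1 gene (ENSCAFG00000043599) without E and 1 (LOC607979) without G. In an edgeR fit on log2 CPM of PLIN1, 6 genes had an FDR under 0.05: PLIN4, TRARG1, CIDEA, LEP, MGST1 and ENSCAFG00000011336. Of these, LEP and TRARG1 had a slope over 1. That cut is on doublings per doubling of PLIN1 and is not the 2-fold cut between groups. PLIN1 also chose the groups, so this fit is a description. In tumors the number of genes called was 24 with DESeq2 and 0 under every other alternative run, each omission of a library included. Genes with groups apart numbered 1965 in bone (1619 with library totals only) and 2796 to 4029 without 1 library; in tumors they numbered 1071 (862) and 1904 to 3151, larger by construction with fewer libraries. All library measures kept their direction; without E the difference in the share of the 10 most abundant genes went from -13.5 to -2.36 percentage points.

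Ranked by FABP4, the log2 fold change turned to -0.50 for APOE in bone, -0.20 for ACOT11, -0.18 for AGT, -0.17 for TSPAN8, 0.28 for PRSS12, 0.094 for TMCC3 and 0.17 for PELI2; ranked by PLIN4, CIDEC or LEP it turned to -0.11 for TSPAN8, 0.16 for TMCC3 and 0.002 for ACLY. Without D it was -0.060 for CD36, and ANGPTL4, at 0.07, fell below 0 under 7 alternatives, to -0.32 at the lowest. In tumors, leaving out a library gave SCD -0.92 to 0.82, MGLL -0.24 to 0.94 and PNPLA2 -0.050 to 0.71, with a turn of sign without F for SCD and PNPLA2 and without A for MGLL; the cause was not tested. The alternatives on list counts, groups apart and slopes were chosen after seeing the data.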
